A study of Capra hircus with 36 samples.

Results

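The muscle miRNAs of the miR-1, miR-133a, miR-133b and miR-206 genes, often called myomiRs, were followed through small RNA libraries of 6 goat tissues. Every listed miRNA named chi-miR-1, chi-miR-133a, chi-miR-133b or chi-miR-206, with any arm, was taken, and 3 listings that the study could not match to annotated miRNAs were skipped. This gave 6 listings: miR-1-3p, miR-1-5p, chi-miR-133a-3p, miR-133a-5p, chi-miR-133b-5p and miR-206-3p. chi-miR-133a-3p and chi-miR-133b-5p held equal counts in each of the 36 libraries, from 789 to 3740411, so the pair cannot be told apart here. They were counted once under the name miR-133a-3p, leaving 5 members of 1387 miRNAs.

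The libraries came from 3 adult females, about 3 years old, of the Tibetan Goat living at 3000 m (high-altitude population) and 3 of the Chuandong White Goat living at 600 m (low-altitude population). Heart, kidney, liver, lung, longissimus muscle (a skeletal muscle of the back) and spleen were taken from each goat, so each of the 12 groups of tissue and population holds 3 libraries, and heart and muscle of one number belong to the same goat. The labels name no treatment. Because each altitude is represented by a single population, altitude and population cannot be told apart. Levels are given in RPM, the count scaled to a common library total, with equal listings counted once in that total.

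The genes of miR-1 and miR-133a lie side by side and are transcribed together, as are those of miR-206 and miR-133b. In the RefSeq annotation of the goat assembly ARS1.2, MIR133A and MIR1 are neighbours between SLCO4A1 and LOC108637402, and MIR133B and MIR206 are neighbours between IL17A and PKHD1. miR-1 and miR-206 share a seed and so many targets, and both are known to promote differentiation of muscle cells. miR-133a is known to favour growth of myoblasts and to restrain smooth muscle genes in the heart. miR-206 is known as the skeletal muscle member of the family, expressed in satellite cells and in regenerating fibres, whereas miR-1 and miR-133a are made in heart and skeletal muscle alike.

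Library totals ran from 7073404 to 11267718 counts (median 9837740). A count of 0 allowed a level of up to 0.266 to 0.424 RPM, taking 3 counts as the limit, and this limit covers counting error only. Libraries of a group came from different goats by the study's sampling, so each was counted as a separate sample. No pair within a group agreed within counting noise, which by itself does not show separate animals. The low-altitude muscle library of goat 3 stood apart: 36 of 266 miRNAs (13.5%) exceeded 4 times the level in every other muscle library, miR-1-3p and miR-206-3p among them. In the high-altitude muscle library of goat 2 this held for 11 miRNAs (4.13%), miR-133a-5p among them. Levels, spreads and orders that rest on these libraries are given with and without them, an alternative added after the data were seen.

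By counts, miR-133a-3p was the leading miRNA of the longissimus muscle and one of the leading miRNAs of the heart. In muscle it measured 310467, 324089 and 218021 RPM in the high-altitude goats and 345920, 381771 and 286523 RPM in the low-altitude goats. It ranked first among all miRNAs in 5 of these 6 libraries and second in the high-altitude library of goat 3, and it took 21.8% to 38.2% of the counts. In heart it measured 97843, 156290 and 99487 RPM in the high-altitude goats and 149982, 124490 and 229103 RPM in the low-altitude goats, and it ranked between 1 and 3. High-altitude goats 1 and 3 had the lowest heart levels, and the highest heart level, in low-altitude goat 3, was above the lowest muscle level, so the tissues overlapped. Within a goat the muscle was higher in 6 of 6, by 1.25 to 3.17 times. The mean was 311132 ± 55935 RPM (SD, n = 6) in muscle and 142866 ± 48814 RPM in heart.

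miR-1-3p had lower counts than miR-133a-3p in every library of both tissues and varied between goats, with 1 goat far above the rest. Counts of different miRNAs depend on how each is captured, so they do not compare amounts. In muscle it measured 1554, 1689 and 3333 RPM in the high-altitude goats and 1535, 1479 and 74583 RPM in the low-altitude goats. In heart it measured 9608, 471 and 2456 RPM in the high-altitude goats and 1019, 1189 and 26565 RPM in the low-altitude goats. Low-altitude goat 3 was therefore the highest animal in both striated tissues, and its muscle level was 50.4 times that of the lowest muscle library. Without it, the highest muscle library was 2.25 times the lowest. The muscle was higher in 5 of 6 goats, the exception being high-altitude goat 1 with 0.162 times its heart level. The standard deviation of log2 RPM over the 6 goats was 2.23 in muscle, which ranked 12th of the 109 miRNAs averaging at least 100 RPM there, and 2.19 in heart, which ranked 5th of 109. Without low-altitude goat 3 it was 0.494 in muscle, ranking 67th of 103, and 1.64 in heart, ranking 6th of 108, so the muscle spread rested on that library. For miR-133a-3p it was 0.279 in muscle (rank 102 of 109) and 0.463 in heart (rank 62 of 109).

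miR-206-3p separated the skeletal muscle from the heart completely. In muscle it measured 634, 60.7 and 1316 RPM in the high-altitude goats and 184, 407 and 9982 RPM in the low-altitude goats. In heart it measured 8.79, 0 and 6.45 RPM in the high-altitude goats and 0.188, 0 and 5.38 RPM in the low-altitude goats. The lowest muscle library thus lay above every heart library. A listed 0 in these files was not always a matter of depth, since miR-486-5p was listed at 0 in the lung of high-altitude goat 2 and at 5061 to 18773 RPM in the other lungs. In the 4 goats with a count in the heart, the muscle held 72.1 to 1857 times the heart level. Among muscle libraries the level differed 164-fold, with a standard deviation of log2 RPM of 2.52 (rank 7 of 109), and without low-altitude goat 3 it differed 21.7-fold, with a standard deviation of 1.70 (rank 9 of 103).

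By counts, the 5p arms were minor. miR-133a-5p measured 43.3, 1677 and 38.9 RPM in high-altitude muscle and 106, 64.5 and 169 RPM in low-altitude muscle, against 46.0, 67.7 and 83.2 RPM in high-altitude heart and 62.0, 35.5 and 107 RPM in low-altitude heart. One muscle library, that of high-altitude goat 2, stood far above the rest, and the tissues overlapped. miR-1-5p reached at most 17 counts in a library, was counted in 5 of 6 muscle libraries at up to 1.87 RPM, had 1 count in 2 heart libraries, and was listed at 0 in all kidney and lung libraries.

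**Figure D1:**
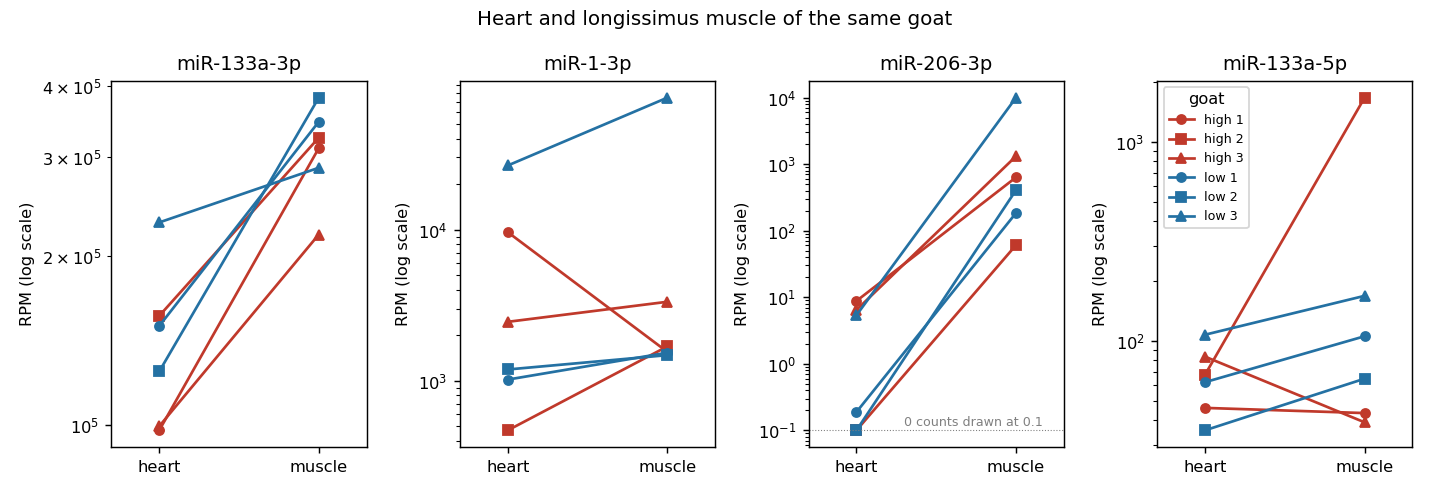
Levels of 4 muscle miRNAs in heart and longissimus muscle of the same 6 goats, in RPM on log axes, with 1 line for each goat, red for high altitude and blue for low altitude. All 6 lines rise from heart to muscle for miR-133a-3p and miR-206-3p, 5 of 6 for miR-1-3p and 4 of 6 for miR-133a-5p, and a count of 0 is drawn at 0.1.

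Heart and muscle were then compared in one fit of all miRNAs, with altitude as a term (edgeR quasi-likelihood test, 12 libraries). This fit had no goat term, so both tissues of a goat were treated as independent, and a goat term was tried as an alternative. To be called, a miRNA needed a Benjamini-Hochberg adjusted p under 0.05 and a log2 fold change of 1.5 or more in size. Of all miRNAs, 5.98% were called, and 3.24% were called higher in muscle. Of the 5 members, miR-206-3p alone was called. Its log2 fold change was 9.19 ± 2.04 (SE, muscle over heart), with an adjusted p of 0.0132 in the edgeR fit. Without high-altitude goat 3 the change was 9.52 and the adjusted p 0.0543 in edgeR, so that the call was lost, and over the other alternatives the adjusted p stayed between 3.77e-09 and 0.0398. Groups that did not overlap in RPM were found for miR-206-3p and no other member, against 3.24% of all miRNAs higher in muscle without overlap.

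miR-133a-3p was higher in muscle by 1.33 ± 0.235 (log2 ± SE) with an edgeR adjusted p of 0.0031, a change that passed the test and fell short of the minimum fold. Without low-altitude goat 3 it was called, at 1.54 with an edgeR adjusted p of 0.00232, and without high-altitude goat 1 it was 1.06 with an edgeR adjusted p of 0.0559. The other members did not pass the edgeR test: miR-133a-5p differed by 1.85 ± 0.83 (adjusted p 0.313), miR-1-5p by 4.04 ± 1.32 (adjusted p 0.0993) and miR-1-3p by 0.43 ± 1.15 (adjusted p 1). The difference in miR-1-3p turned to -0.17 without low-altitude goat 3, and that in miR-133a-5p was 0.27 without high-altitude goat 2. Looser fits called a second member besides miR-206-3p: miR-1-5p in DESeq2 (8.22% of all miRNAs called) and in the edgeR likelihood ratio test (8.36%), and miR-133a-5p in the edgeR fit of 12 groups over 36 libraries (7.43%). With no minimum fold change miR-133a-3p was added, and 8% of all miRNAs passed. In whole tissue, fewer muscle cells and less of a miRNA in each cell cannot be told apart.

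Other miRNAs of striated muscle did not all follow the members. miR-208b and miR-499 lie in introns of slow myosin genes, while miR-378 and miR-486 are abundant in muscle and also made elsewhere. Of 12 such miRNAs listed (arms of miR-208a, miR-208b, miR-499, miR-486 and miR-378), 0 were called higher in muscle and 2 were called lower, with a median log2 fold change of -1.48 against 0 over all miRNAs. The called miRNAs were miR-208b-3p, at 2221 ± 1355 RPM (SD, n = 6) in muscle and 15338 ± 3181 RPM in heart, and miR-499-5p, at 1366 ± 651 RPM in muscle and 7848 ± 1194 RPM in heart. Their log2 fold changes were -2.62 ± 0.475 (edgeR adjusted p 0.00382) and -2.37 ± 0.382 (edgeR adjusted p 0.00175). miR-378-3p was higher in muscle by 1.06 ± 0.19 and miR-378-5p by 0.99 ± 0.244, both under the minimum fold, with edgeR adjusted p of 0.00358 and 0.0247. Of the tissue-defining miRNAs, miR-208b-3p and miR-499-5p were thus higher in the libraries labelled heart, though both held at least 873 RPM in every muscle library, and miR-206-3p was higher in those labelled muscle.

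In liver, spleen, kidney and lung the members averaged less than in longissimus muscle, in an order that differed between them. miR-133a-3p ran muscle, heart, liver, spleen, lung and kidney by the mean, with kidney before lung by the median (462 and 322 RPM), and its lowest striated library lay 19.6 times above the highest of the 24 other libraries. In liver it measured 3393, 2763 and 2496 RPM at high altitude and 375, 4981 and 1277 RPM at low altitude. In spleen it measured 1129, 2432 and 1064 RPM at high altitude and 1394, 1492 and 1397 RPM at low altitude. The liver had the widest range of the pair, and the spleen libraries were close together except for high-altitude goat 2. Lung averaged 525 ± 421 RPM and kidney 502 ± 362 RPM (SD, n = 6), and their values by library are given with the altitude comparison.

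miR-1-3p ran muscle, heart, lung, liver, kidney and spleen by the mean. The place of muscle above heart rested on low-altitude goat 3: without that goat the means were 2949 RPM in heart and 1918 RPM in muscle, and by the median over all goats heart (1823 RPM) came before muscle (1621 RPM) and liver (55.3 RPM) before lung (35.5 RPM). Its margin was narrow, since the lowest striated library, a heart at 471 RPM, lay 1.42 times above the highest other library, a lung at 331 RPM. Liver held 51.8, 58.8 and 117 RPM at high altitude and 18.5, 83.0 and 15.5 RPM at low altitude, and spleen held 12.4 to 25.1 RPM with a median of 17.5 RPM. Kidney held 24.6, 7.37 and 27.3 RPM at high altitude and 20.04, 35.3 and 57.7 RPM at low altitude. The populations overlapped in all 3 tissues.

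miR-206-3p outside muscle stayed at or below 8.79 RPM, a heart library. Liver ranged from 1.55 to 8.48 RPM, spleen from 0.461 to 3.29 RPM, kidney from 0 to 3.41 RPM and lung from 0.884 to 8.73 RPM. The heart range of 0 to 8.79 RPM overlapped that of each of these 4 tissues. miR-133a-5p ran muscle, heart, liver, spleen, kidney and lung, with 2.99 to 31.9 RPM in liver, 5.76 to 13.2 RPM in spleen, 0.405 to 3.01 RPM in kidney and 0.968 to 1.87 RPM in lung.

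**Figure D2:**
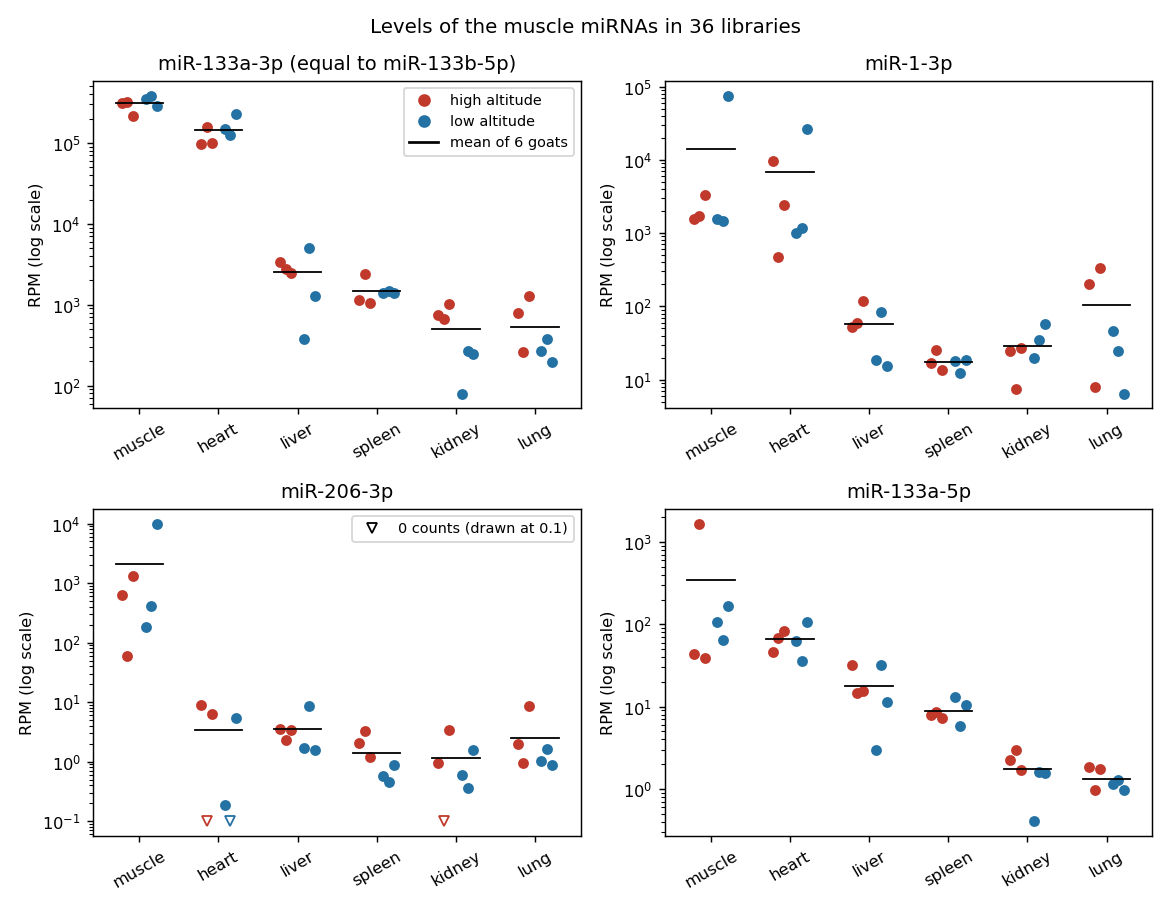
Levels of 4 muscle miRNAs in each of 36 libraries by tissue, in RPM on log axes, with red points for high altitude, blue points for low altitude and a line at the mean of the 6 goats. miR-133a-3p was at least 97843 RPM in every muscle and heart library and at most 4981 RPM elsewhere, while miR-206-3p was above 8.79 RPM in muscle only, and a count of 0 is drawn at 0.1.

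Tissue pairs were tested in one edgeR quasi-likelihood fit over the 36 libraries with tissue and altitude as terms and the same threshold. The fit had no goat term, so tissues of the same goat were treated as independent. In this fit muscle over heart was 1.27 ± 0.548 for miR-133a-3p with an edgeR adjusted p of 0.157, so that it did not pass there, and 2.05 ± 0.632 for miR-133a-5p with an adjusted p of 0.0339, which was called, as was miR-206-3p, where 7.71% of all miRNAs were called. Without high-altitude goat 2, miR-133a-5p was 0.50 and not called. Muscle differed from liver, spleen, kidney and lung for miR-133a-3p, miR-1-3p, miR-206-3p and miR-133a-5p alike, where 14.3%, 17.7%, 11.5% and 18.7% of all miRNAs were called. The log2 fold changes of muscle over these tissues were 7.89 to 9.99 for miR-133a-3p, 6.88 to 9.95 for miR-1-3p, 9.87 to 11.42 for miR-206-3p and 4.63 to 8.30 for miR-133a-5p. Without low-altitude goat 3 they were 4.74 to 7.78 for miR-1-3p and 7.73 to 9.71 for miR-206-3p, and without high-altitude goat 2 they were 2.98 to 6.58 for miR-133a-5p, each called. miR-1-5p, at no more than 17 counts, was also called in muscle over liver (4.04, edgeR adjusted p 0.0465), spleen (4.82, adjusted p 0.0185), kidney and lung. Its call over liver was lost without low-altitude goat 3 (edgeR adjusted p 0.0908) and without high-altitude goat 2 (adjusted p 0.167), and that over spleen without high-altitude goat 2 (adjusted p 0.0823). In kidney and lung it was listed at 0 in every library, so its fitted fold over them depends on the prior count and is not given. Heart differed from the same tissues for miR-133a-3p (6.62 to 8.72), miR-1-3p (6.11 to 9.18) and miR-133a-5p (2.58 to 6.26), where 12.3%, 12.5%, 13.3% and 11.6% of all miRNAs were called. For miR-1-3p the heart values were 4.75 to 7.78 without low-altitude goat 3, each called. For miR-206-3p the heart was not called against any of them, with log2 fold changes of 0.28 ± 1.07 over liver, 1.83 ± 1.09 over spleen, 1.38 ± 1.08 over kidney and 0.61 ± 1.06 over lung. Heart over liver turned to -0.84 and heart over lung to -0.23 without low-altitude goat 3, and the values over spleen and kidney were 1.14 and 0.69, none of them called.

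Among neighbours in the order, miR-133a-3p was not called between liver and spleen (edgeR adjusted p 0.419), spleen and lung (adjusted p 0.108) or lung and kidney (adjusted p 1). It was called for liver over kidney, at 1.92 ± 0.563 with an edgeR adjusted p of 0.0225 and 8.72% of all miRNAs called, and for liver over lung, at 2.09 ± 0.564 with an adjusted p of 0.0119 and 9.08% called. Without low-altitude goat 3 the former call was lost (edgeR adjusted p 0.0666). miR-1-3p and miR-206-3p were called between no pair of the liver, spleen, kidney and lung, though without low-altitude goat 3 miR-1-3p was called lower in spleen than in lung (-3.03, edgeR adjusted p 0.0248). For miR-133a-5p the spleen was called over the kidney, at 2.09 ± 0.627 with an edgeR adjusted p of 0.0187 (0.0785 and not called without low-altitude goat 3), while liver over spleen and kidney over lung were not (adjusted p 0.339 and 0.514). Over all miRNAs, 9.66% were called between liver and spleen, 13.9% between spleen and kidney, 8.58% between spleen and lung and 12.1% between kidney and lung. The tissue specificity index, which is 0 for even levels and 1 for a miRNA of a single tissue, was 0.999 for miR-206-3p, 0.945 for miR-133a-5p, 0.905 for miR-133a-3p and 0.899 for miR-1-3p, and 23.8% of the 311 miRNAs averaging at least 10 RPM exceeded 0.85. In the populations taken apart the index of miR-133a-5p was 0.967 at high and 0.83 at low altitude, the former including the outlying muscle library, and without that library it was 0.77 over both populations. Without low-altitude goat 3 the index was 0.854 for miR-1-3p and 0.995 for miR-206-3p.

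The ratio of miR-133a-3p to miR-1-3p differed widely between libraries. miR-133a-3p counts exceeded those of miR-1-3p by 65.4 to 258 times in 5 muscle libraries and by 3.84 times in low-altitude goat 3. In heart the ratio ran from 8.62 in the same goat to 332 in high-altitude goat 2, and in spleen from 66.5 to 120. Levels of 2 different miRNAs depend on how each is captured in library preparation, so such ratios compare libraries, not amounts. In muscle, miR-1-3p outnumbered miR-206-3p by 2.45 to 27.8 times, the lowest in high-altitude goat 1 and the highest in high-altitude goat 2.

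**Figure D3:**
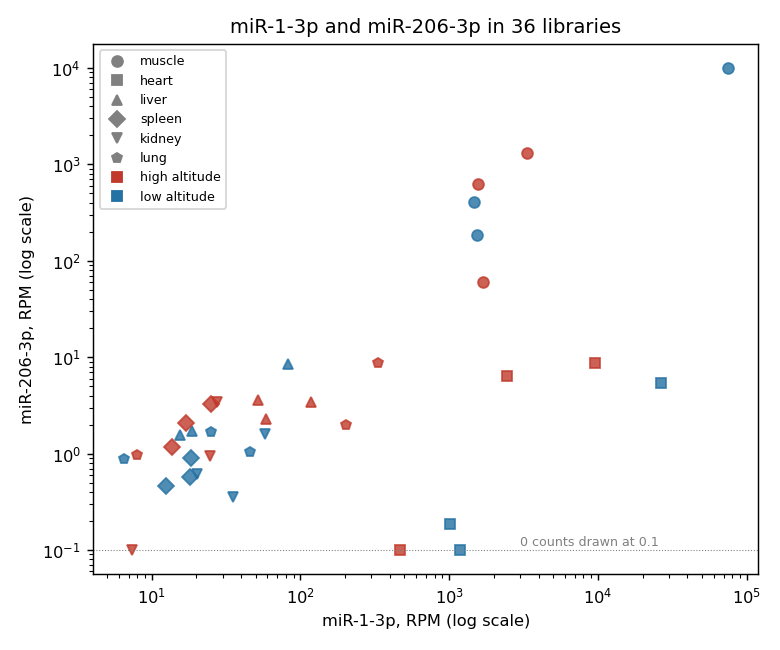
Level of miR-206-3p against that of miR-1-3p in 36 libraries, both in RPM on log axes, with the marker shape giving the tissue and the colour the population. Muscle libraries lie at the top, from 60.7 to 9982 RPM of miR-206-3p, heart libraries reach miR-1-3p levels of 471 to 26565 RPM with at most 8.79 RPM of miR-206-3p, and a count of 0 is drawn at 0.1.

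miR-206-3p followed miR-1-3p across libraries, with a Spearman rho of 0.637 over 36 libraries, 0.6 over the 6 muscle libraries and 0.673 over the 24 libraries of liver, spleen, kidney and lung. These libraries share goats and tissues, and the values are a description. miR-1-3p and miR-133a-3p had a rho of 0.756 over 36 libraries and 0.305 over the 24 libraries of liver, spleen, kidney and lung. Within single tissues it ran from -0.886 in muscle and -0.143 in heart to 0.543 in liver and 0.943 in lung. Within a library, RPM of abundant miRNAs are tied through the total, and miR-133a-3p held up to 38.2% of it.

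The 5p arm took a smaller share of miR-133a in striated muscle than elsewhere. It made up 0.0139% to 0.515% of both arms in muscle (median 0.0242%) and 0.0285% to 0.0836% in heart (median 0.0451%). The share was 0.533% to 0.931% in liver, 0.357% to 0.935% in spleen, 0.166% to 0.645% in kidney and 0.139% to 0.503% in lung, so that every heart library lay below every library of these 4 tissues, as did each muscle library but that of high-altitude goat 2. The 3p count used here is the one listed for miR-133b-5p as well. Muscle minus heart gave 0.0604 percentage points for miR-133a, higher in 2 of 6 goats (two-sided exact sign-flip test, p 0.906, adjusted 0.906 over 2 precursors). The sign of the mean rested on high-altitude goat 2, without which it was -0.0219 points. For miR-1 it gave 0.0422 points, higher in 5 of 6 goats, on at most 17 counts of the 5p arm (exact sign-flip p 0.0625, adjusted 0.125). The 5p arm had 0 counts in both tissues of high-altitude goat 1, a tie that a sign flip leaves unchanged. The smallest p of 0.03125 needs 6 differences other than 0, so with this tie 0.0625 was the lowest p possible. The test could therefore not pass and decides nothing for miR-1.

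**Figure D4:**
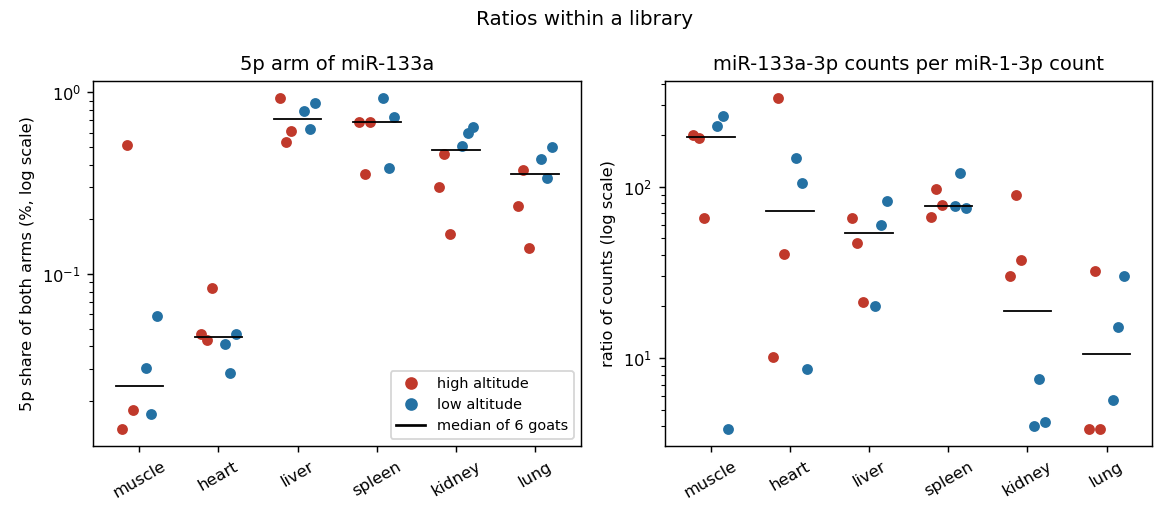
Left, share of the 5p arm in the counts of miR-133a (percent, log axis), and right, counts of miR-133a-3p per count of miR-1-3p (log axis), for each library by tissue, with a line at the median of 6 goats. The 5p share is at most 0.0836% in all heart libraries and in 5 of 6 muscle libraries, and the ratio in muscle falls to 3.84 in 1 low-altitude library.

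High- and low-altitude goats were compared within each tissue, 3 against 3, by the same test. No member was called in any tissue. Over all miRNAs the edgeR test called 0.0721% in muscle, 0.144% in spleen and 0% in heart, liver, kidney and lung, while 60 to 93 of 1387 miRNAs per tissue had an unadjusted p under 0.05. DESeq2 called 22 to 36 miRNAs per tissue, and among them 1 member, miR-133a-3p in kidney, where it called 28 miRNAs (2.02%). Across all miRNAs, the populations did not overlap for 8.65% in muscle, 11.8% in heart, 8.29% in liver, 10% in spleen, 5.34% in kidney and 8.29% in lung. Among the members, groups without overlap were seen for 3 combinations of member and tissue, each higher at high altitude: miR-133a-3p and miR-133a-5p in kidney, where 1.66% of all miRNAs were higher without overlap, and miR-206-3p in spleen, where 4.47% were.

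In kidney, miR-133a-3p measured 740, 657 and 1027 RPM at high altitude and 79.9, 267 and 243 RPM at low altitude. The lowest high-altitude kidney lay above the highest low-altitude kidney. The log2 fold change was 2.37 ± 0.524 (SE), with an unadjusted p of 0.00307 and an adjusted p of 0.706 in edgeR, and an adjusted p of 0.00273 in DESeq2, the lowest of its alternatives, which reached 1. miR-133a-5p went the same way at 2.25, 3.01 and 1.71 RPM against 0.405, 1.60 and 1.58 RPM (1.18 ± 0.649, edgeR adjusted p 0.959). Its counts were 19 to 29 per library at high and 4 to 18 at low altitude. The 95% counting intervals of the nearest libraries, 1.03 to 2.67 RPM and 0.947 to 2.53 RPM, overlapped. miR-1-3p did not follow, with a log2 fold change of -0.49 ± 0.739 and overlapping groups. Values of other striated-muscle miRNAs in the same kidneys stand beside these. miR-499-5p measured 57.4, 30.2 and 159 RPM against 2.94, 15.7 and 5.62 RPM, without overlap, and miR-208b-3p 14.98, 32.3 and 11.1 RPM against 1.11, 15.01 and 4.74 RPM, with overlap. edgeR called neither, while DESeq2 called miR-499-5p (log2 fold change 3.90, adjusted p 0.00951). miR-208a-3p was at 0 in all but 1 kidney library. miR-378-3p measured 1154, 3921 and 975 RPM against 1266, 1116 and 2423 RPM, with overlap. miR-486-5p measured 592, 0 and 758 RPM against 375, 476 and 363 RPM, also with overlap. Summed over the 12 other striated-muscle miRNAs the level was 1827 to 4021 RPM at high and 1634 to 2819 RPM at low altitude (1151 to 4021 and 1158 to 2456 RPM without miR-486), and the part of muscle-derived RNA in the difference was not tested.

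In lung, 2 high-altitude goats carried the higher levels of the members. miR-133a-3p measured 788, 258 and 1266 RPM at high altitude and 264, 380 and 194.1 RPM at low altitude. miR-1-3p measured 204, 8.03 and 331 RPM against 46.2, 24.9 and 6.48 RPM, and miR-206-3p 1.97, 0.968 and 8.73 RPM against 1.03, 1.66 and 0.884 RPM. Goats 1 and 3 of the high-altitude group were the highest for all 3 miRNAs, and goat 2 lay within the low-altitude range. The log2 fold changes were 1.93 ± 0.811, 3.30 ± 1.44 and 2.28 ± 1.17, each with an edgeR adjusted p of 0.835. All 3 were lowest without high-altitude goat 3, at 1.14, 2.36 and 0.48. Leaving out any other goat gave at most 2.42, 4.09 and 2.81. miR-208b-3p, at 12.4, 7.35 and 15.9 RPM against 0.413, 3.04 and 2.06 RPM, and miR-499-5p, at 23.6, 12.8 and 89.1 RPM against 4.65, 13.2 and 6.58 RPM, were also highest in goats 1 and 3. Other striated-muscle miRNAs were not. miR-378-3p, at 1149, 1929 and 798 RPM against 1474, 879 and 1048 RPM, was highest in high-altitude goat 2 and lowest in high-altitude goat 3. miR-208a-3p measured 1.76, 0 and 0 RPM against 0, 1.66 and 1.37 RPM. miR-486-5p measured 18773, 0 and 5061 RPM against 6351, 5537 and 7366 RPM. miR-208b-3p did not overlap between the populations and was called by DESeq2 (log2 fold change 3.12, adjusted p 0.0339) and not by edgeR. The sum over the 12 other striated-muscle miRNAs was 1961 to 20060 RPM at high and 6450 to 8535 RPM at low altitude. It rested on miR-486-5p, and without both arms of miR-486 the sum was 909 to 1961 RPM at high and 911 to 1495 RPM at low altitude. Their part in the result was not tested.

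In muscle and heart themselves the populations overlapped for all members. miR-133a-3p differed by -0.08 ± 0.396 (log2 ± SE, high over low) in muscle and by -0.71 ± 0.291 in heart, with edgeR adjusted p of 1 and 0.733. miR-1-3p differed by -3.09 ± 1.54 in muscle and -1.25 ± 1.47 in heart. Without low-altitude goat 3 these became 0.70 and 1.55. For miR-206-3p in muscle the difference was -1.79 ± 1.66, and without that goat 1.43. For miR-133a-5p in muscle it was 2.13 ± 1.28, and without high-altitude goat 2 it was -0.96. Whether the altitude difference of a member itself differed between muscle and heart was tested as an interaction: 0 of 1387 miRNAs were called by edgeR, 77 had an unadjusted p under 0.05, and DESeq2 called 15. The members' interaction terms ran from -3.25 to 2.32 with an edgeR adjusted p of 1 for each.

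**Figure D5:**
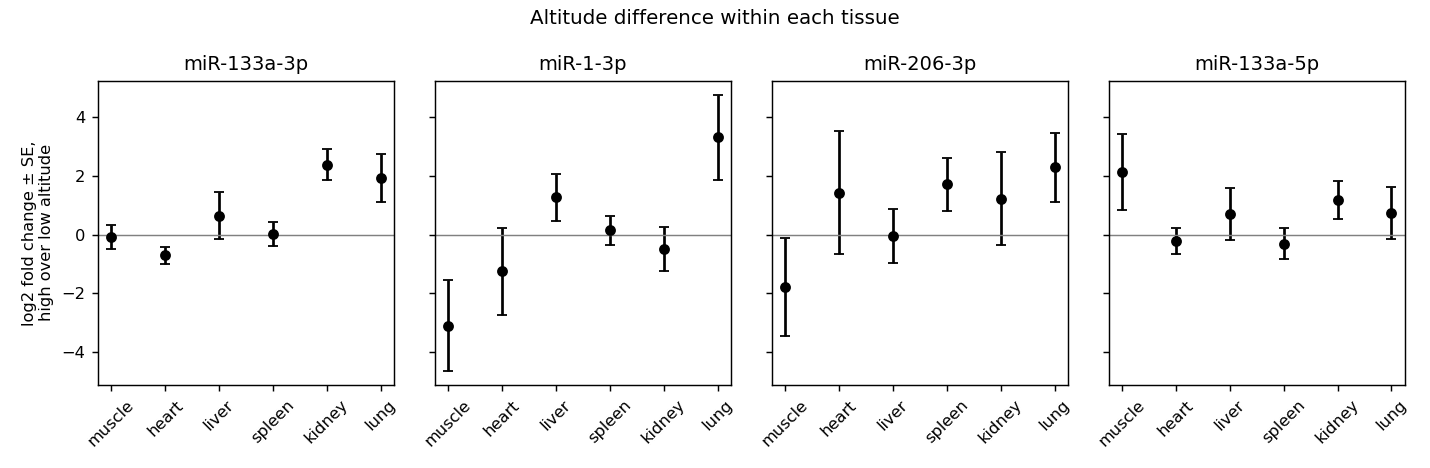
Log2 fold change of high over low altitude (± SE, edgeR fit of 3 against 3 libraries in each tissue) for 4 muscle miRNAs in 6 tissues, with a line at 0. The highest value for miR-133a-3p is 2.37 in kidney and for miR-1-3p 3.30 in lung, and no value passed the adjusted test.

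In liver and spleen no difference passed the edgeR test. miR-133a-3p differed by 0.64 ± 0.81 in liver and 0.02 ± 0.401 in spleen, and miR-1-3p by 1.27 ± 0.802 and 0.14 ± 0.48. With each goat left out in turn, the liver difference in miR-133a-3p ran from 0.20 without low-altitude goat 1 to 1.89 without low-altitude goat 2. That in miR-1-3p ran from 0.66 without high-altitude goat 3 to 2.29 without low-altitude goat 2. In spleen the ranges were -0.37 to 0.25 for miR-133a-3p and -0.04 to 0.36 for miR-1-3p, both lowest without high-altitude goat 2 and highest without high-altitude goat 3. In spleen miR-206-3p measured 2.05, 3.29 and 1.18 RPM at high and 0.572, 0.461 and 0.891 RPM at low altitude. The spleen difference in miR-206-3p was 1.70 ± 0.906 on the log2 scale with an edgeR adjusted p of 0.726, at counts of 4 to 31 per library.

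The miRNAs whose levels followed miR-133a-3p, miR-1-3p and miR-206-3p most closely were sought over 36 libraries. They were taken from 307 miRNAs averaging at least 10 RPM, the members themselves left out. For miR-133a-3p they were miR-499-5p (Spearman rho 0.874), miR-208b-3p (0.852), miR-378-5p (0.808), miR-499-3p (0.788) and miR-378-3p (0.779). For miR-1-3p they were miR-499-5p (0.78), miR-208b-3p (0.772), miR-486-3p (0.736), miR-486-5p (0.73) and a miRNA without a match in miRBase (0.686). For miR-206-3p they were miR-193b-3p (0.552), the same unmatched miRNA (0.546), miR-486-5p (0.479), miR-365-3p (0.45) and miR-22-3p (0.426). The order of likeness was thus led by myosin-intron miRNAs for the heart and muscle members, and by miR-193b-3p, at 898 RPM in muscle and 75.4 RPM in heart on average, for miR-206-3p. Libraries of one goat or tissue are not independent, so these values describe and test nothing.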

How the data were processed

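Small RNA of 36 libraries (6 tissues of 6 goats) was sequenced. The authors deposited raw counts per mature miRNA, made with Bowtie mapping to the goat genome ARS1 with 0 mismatches and miRDeep2 against miRBase release 21, and a miRNA was kept where 1 library or more held 3 reads or more. CASAVA 1.8 is named in the submitters' processing notes. The members and lists were chosen with earlier results of these data known. Of 39 sets of equal listings (104 miRNAs), 4 reaching 10 counts were kept once, leaving 1387, and RPM used totals of these. The deposited totals count miR-133a-3p and miR-133b-5p both, and exceed them by 21.8% to 38.2% in muscle, 9.78% to 22.9% in heart and at most 0.498% elsewhere.

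Groups were compared with edgeR 4.0.16 (TMM, quasi-likelihood) in R 4.3.3, adjusted over all miRNAs (Benjamini-Hochberg), with 1.5 as the minimum absolute log2 fold change. DESeq2 1.42.0, other scalings and filters, and leaving out each goat were alternatives. Members reaching 10 counts were named with values, and per member the 5 most alike. The muscle-heart fit was tested on simulated data over 1387 miRNAs: 97% of changes of 2 (log2) and 100% of changes of 4 were recovered, as were 82% and 100% in the muscle altitude fit and 77% and 100% in the interaction fit, with 2, 2 and 5 false calls. Simulated counts had the same fixed spread setting for every miRNA and no goat effect, and changed miRNAs averaged at least 10 counts. Real spreads in muscle were wide for miR-1-3p, miR-206-3p and miR-133a-5p (standard deviation of log2 RPM 2.23, 2.52 and 2.02). The recovered shares therefore do not give the power for these members. Exact tests used SciPy 1.17.1.

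Heart and muscle of one number come from the same goat, per the study's sampling of all tissues from each animal, and their deviations from the group means correlated at 0.156 to 0.399. The same number in both populations does not mark one animal. In heart the same-numbered goats of the populations correlated at 0.342 to 0.493, and in the other tissues the correlations were between -0.476 and 0.415. They are different animals, so such a correlation does not make them pairs. The main altitude fits did not pair them, and their number entered only as an alternative.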

Additional observations from a re-analysis of the deposited data

Results flagged for a closer look

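For 7 of 25 combinations of member and tissue, 1 of the 6 libraries lay far from the others, by the gap to its nearest neighbour as a share of the whole range, judged by Dixon's 95% critical value. That value marks about 1 in 20 groups when values are normally distributed. It was applied to RPM without a log scale, and all 7 marked libraries were the highest of their tissue. The rate of 1 in 20 therefore need not hold here. The share was 0.975 for miR-1-3p in muscle and 0.874 for miR-206-3p in muscle, both in low-altitude goat 3, whose heart was also the highest for miR-1-3p (0.65). It was 0.921 for miR-133a-5p in muscle, in high-altitude goat 2. It was 0.687 for miR-133a-3p in spleen of high-altitude goat 2, 0.708 for miR-206-3p in liver of low-altitude goat 2 and 0.862 for miR-206-3p in lung of high-altitude goat 3.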

How the results depend on the processing

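Of 550 fold changes recomputed, 521 kept direction and call, 5 became called, 1 lost its call and 23 changed sign; none of the sign changes concerned a called member. In muscle versus heart, 1 member was called, against 2 in DESeq2, in the edgeR likelihood ratio test, in the fit over 36 libraries and with no minimum fold change, and 0 to 2 when a goat was left out. Calls over all miRNAs rose too, from 83 to 114, 116, 103 and 111. With goat as a replicate block, 1 was called in muscle versus heart too. In the altitude fits the replicate block was the number shared by different animals, and it changed no member's call. For altitude DESeq2 called 1 member against 0, and 22 to 36 miRNAs per tissue in all against 0 to 2. The muscle minus heart difference in 5p share of miR-133a became -0.212 as the log2 ratio of the arms and ran from -0.0219 to 0.0856 when a goat was left out, the lowest without high-altitude goat 2. The miR-133a-3p muscle mean was 236115 RPM with deposited totals and 459990 RPM with TMM library sizes, against 311132 RPM. Altitude differences that changed sign between settings were near 0 or rested on 1 goat. For miR-206-3p in liver (-0.05) the values were 0.0197 with RLE size factors, 0.0157 in DESeq2, 0.31 with the replicate block, 0.017 in the fit over 36 libraries, and -0.41 to 1.02 when a goat was left out. For miR-133a-3p in muscle the fit over 36 libraries gave 0.11 and leaving out a goat -0.30 to 0.11; in spleen the block gave -0.0533, the fit over 36 libraries -0.0022, and leaving out a goat -0.37 to 0.25. Leaving out a goat moved miR-1-3p from -2.71 to 1.55 in heart, -0.82 to 0.0052 in kidney, -3.75 to 0.70 in muscle and -0.0429 to 0.36 in spleen, and from -0.17 to 1.32 between muscle and heart. It moved miR-133a-5p from -0.40 to 0.0749 in heart, -0.96 to 2.66 in muscle and -0.72 to 3.11 in the interaction, and miR-206-3p from -0.31 to 1.81 in kidney and -2.81 to 1.43 in muscle. The cause was not tested. Counts of at most 17 for miR-1-5p and 99 for miR-206-3p in heart limit those comparisons.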
